A study of Mus musculus with 6 samples.

Results

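The 10 RGS genes described here (Rgs2, Rgs3, Rgs4, Rgs5, Rgs10, Rgs12, Rgs14, Rgs16, Rgs17 and Rgs19) were taken by gene symbol from 55401 genes in each deposited table, which list 21 numbered RGS genes. The symbols were selected on earlier results of the same comparison of IPRN with DMSO, so the differences of these 10 genes between the groups are given as descriptions and no p-value is given for them. The cells were NIH3T3, an immortalised line of mouse embryonic fibroblasts labelled wild type, and mRNA sequencing gave 3 libraries of cells treated with IPRN and 3 of cells given the vehicle DMSO. Per the design text, NIH3T3 cells were induced with hydrogen peroxide and TGF-β as a model of cancer-associated fibroblasts, and the question was which signalling pathways IPRN acts on; the title speaks of angelicin, a furanocoumarin from plants, without tying it to the name IPRN. The labels give neither dose nor duration and do not say whether the DMSO cells had both inducers.

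RGS proteins shut off heterotrimeric G proteins. A G protein-coupled receptor loads GTP onto a Gα subunit, and the RGS domain speeds the hydrolysis of that GTP, which ends the signal. The family is divided into subfamilies: R4 proteins (Rgs2, Rgs3, Rgs4, Rgs5, Rgs16) are mostly little more than the RGS domain, RZ proteins (Rgs17, Rgs19, Rgs20) carry a cysteine string, and the R12 proteins Rgs12 and Rgs14 add a Ras-binding region and a GoLoco motif that binds Gα in its GDP form, while Rgs10 of the same subfamily is small. Several R4 genes are known to be induced by the receptors whose signals their proteins end.

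Total counts were 60320282 to 78629444 per library, so that 3 counts, taken as the limit of detection, equal 0.0382 to 0.0497 CPM. Markers of other cell types were also counted, unevenly between libraries. All 8 fibroblast markers were detected, at a summed 15744 to 18987 CPM in IPRN and 15935 to 16808 CPM in DMSO, where CPM is the count scaled to library size with TMM factors. Of these, 1 passed the edgeR test at an adjusted p under 0.05, as did 5.47% of all tested genes. It was Prrx1, which fell, with 424.9, 389.5 and 392.8 CPM in IPRN 1, 2 and 3, against 469.7, 477.9 and 495.2 CPM in DMSO 1, 2 and 3. S100a4, Vim and Col3a1 were also lower in every IPRN library than in any DMSO library, and Thy1 was higher in every one. The ranges of Col1a1, Col1a2 and Pdgfrb overlapped. All 10 hepatocyte markers had counts. Without Hp, which fell (15 to 16 CPM in IPRN and 39.4 to 41.2 CPM in DMSO), the other 9 summed to 2.81 to 78 CPM in IPRN and 3.01 to 41.5 CPM in DMSO, and they were lowest in IPRN 3 and DMSO 1. Of 6 leukocyte markers 5 had counts and Cd3e had 0, with sums of 11 to 117.7 CPM in IPRN and 2.50 to 11.5 CPM in DMSO. The high value was that of IPRN 3, where the myeloid genes Lyz2 and Itgam reached 98 and 13 CPM. Of 8 pericyte markers 7 had counts and Kcnj8 had 0, with sums of 156.5 to 189.1 CPM in IPRN and 127.4 to 145.9 CPM in DMSO, nearly all of it Cspg4. Cspg4, Notch3 and Mcam were higher in every IPRN library than in any DMSO library. Such separate ranges, in either direction, were found for 29.6% of all tested genes. Des was lower on average under IPRN with overlapping ranges. Only 4 of the 8 pericyte markers had enough counts to be tested, and none of these passed the test. All 5 endothelial markers summed to 1.37 to 2.51 CPM in IPRN and 3.15 to 3.40 CPM in DMSO, and all 5 neuronal markers to 0.326 to 4.72 CPM in IPRN and 1.51 to 4.18 CPM in DMSO. A term for the 4 libraries other than IPRN 3 and DMSO 1, those richer in hepatocyte transcripts, left the log2 fold change of Rgs16 at -1.73 and that of Rgs2 at -0.75. It gave -1.37 for Rgs5, against -0.90 without the term, and 0.046 for Rgs14, against 0.50 without it. The part of the other cell types' transcripts in the values of the RGS genes was not tested beyond this term and leaving out libraries.

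Rgs16 and Rgs2 were the members called as different, and both were lower under IPRN. Rgs16 stood 3.33-fold and Rgs2 1.69-fold lower than in DMSO, and the other 8 members did not reach an adjusted p under 0.05 in the edgeR test across all genes. Thus 2 of 10 members were called, that is, passed this threshold, beside 5.47% of 17159 tested genes (3.01% lower and 2.46% higher), and nothing is read from that contrast because the same comparison entered the choice of members. All 10 passed the filter on low counts. For 6 members the IPRN and DMSO ranges were separate (Rgs2, Rgs4 and Rgs16 lower, Rgs10, Rgs12 and Rgs19 higher under IPRN), beside 29.6% of all tested genes. The median log2 fold change was -0.16 over the members and 0.0016 over all tested genes. In bulk RNA, fewer cells expressing a gene and less of its RNA per cell cannot be told apart.

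Because Rgs16 and Rgs2 differed together, the 250 bases before the start of each gene are shown. They come from RefSeq on GRCm38.p6 and end at the RefSeq start, and capitals mark the 5-base part TGACG of the cAMP response element, or its complement CGTCA. The Rgs16 window is chr1:153740103-153740352 on the plus strand and the Rgs2 window is chr1:144004150-144004399 on the minus strand.
Rgs16: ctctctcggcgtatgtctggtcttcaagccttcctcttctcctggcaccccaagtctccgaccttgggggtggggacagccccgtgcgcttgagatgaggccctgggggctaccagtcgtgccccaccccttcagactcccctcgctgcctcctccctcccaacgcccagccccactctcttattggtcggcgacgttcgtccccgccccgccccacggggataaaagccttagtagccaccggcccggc
Rgs2: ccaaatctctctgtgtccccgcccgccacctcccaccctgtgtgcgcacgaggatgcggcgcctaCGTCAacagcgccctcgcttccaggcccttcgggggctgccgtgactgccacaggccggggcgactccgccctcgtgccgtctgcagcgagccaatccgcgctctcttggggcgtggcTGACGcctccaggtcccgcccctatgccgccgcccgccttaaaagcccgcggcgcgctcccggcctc
The Rgs2 window held this 5-base sequence 2 times, at positions -185 to -181 and -67 to -63 counted back from the first transcribed base, and the Rgs16 window held none. Of 32851 windows of the same length, 17.8% held it on either strand. Neither window held the full element TGACGTCA (1.55% of windows), the AP-1 sequence TGANTCA (6.75%), the EGR sequences GCGTGGGCG or GCGGGGGCG (3.06%), or a match to the consensus of NF-κB (3.90%) or of the SRF-binding CArG box (1.47%), each searched on both strands. The full element contains TGACG, so these searches overlap. Both windows were rich in G and C, at 66.4% for Rgs16 and 72.4% for Rgs2, against a median of 52.4% over all windows. Of the 10 members 9 had a window, in 13 windows in all, since Rgs3, Rgs12 and Rgs19 have several starts. Among the other members, TGACG occurred before Rgs4 and before 1 start of Rgs12, and TGANTCA before that same start of Rgs12 and before Rgs17.

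Rgs16 encodes an R4 protein that accelerates GTP hydrolysis on Gαi and Gαq. The gene (ENSMUSG00000026475, protein coding) lies on chromosome 1 from 153740349 to 153745468, plus strand, on GRCm38. IPRN 1, 2 and 3 held 102.8, 105 and 102.1 CPM, against 347.6, 339.4 and 344.2 CPM in DMSO 1, 2 and 3. The IPRN libraries lay within 3 CPM of one another, and the groups were far apart. The means were 103.3 ± 1.48 CPM in IPRN and 343.7 ± 4.07 CPM in DMSO (SD, n = 3 each), and the log2 fold change was -1.73 ± 0.041 (SE). It was -1.73 without IPRN 3 and -1.72 without IPRN 3 and DMSO 1. Of 2339 exonic bases of Rgs16, 236 are shared with Gm28513, a gene model on the opposite strand. The library preparation described in the labels has no step that marks strand, so the Rgs16 value is uncertain by reads of that model. Gm28513 was assigned 6, 3 and 0 counts in IPRN 1, 2 and 3, against 23, 32 and 25 in DMSO 1, 2 and 3, while Rgs16 had 6579 to 7829 counts in IPRN and 20877 to 26998 counts in DMSO.

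Rgs2 encodes an R4 protein known for its preference for Gαq, and mice that lack it have raised blood pressure. The gene (ENSMUSG00000026360, protein coding) lies on chromosome 1 from 143999338 to 144004161, minus strand, with no exon shared with another model. It had 46.8, 46.7 and 44.9 CPM in IPRN 1, 2 and 3, against 75.9, 79.4 and 78 CPM in DMSO 1, 2 and 3. The highest IPRN library was thus well below the lowest DMSO library. The log2 fold change was -0.75 ± 0.051 (SE), and the coefficient of variation within a group was 2.32% in IPRN and 2.23% in DMSO, against 1.43% in IPRN and 1.19% in DMSO for Rgs16. Without IPRN 3 its log2 fold change was -0.74, and without IPRN 3 and DMSO 1 together it was -0.75 and Rgs2 was no longer called.

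The 3 other R4 members were lower on average under IPRN by amounts within or near their spread. Rgs3 (chromosome 4, 62559847 to 62703018, plus strand), which has long isoforms with added domains, had 28.2, 23.9 and 25.1 CPM in IPRN 1, 2 and 3, against 28.9, 30.3 and 26.6 CPM in DMSO 1, 2 and 3, so that IPRN 1 reached into the DMSO range (log2 fold change -0.15 ± 0.094). Rgs4 (chromosome 1, 169741477 to 169747642, minus strand), best known from brain and heart, had 4.18, 3.93 and 3.49 CPM in IPRN 1, 2 and 3, against 4.49, 5.33 and 4.42 CPM in DMSO 1, 2 and 3 (log2 fold change -0.30 ± 0.15). Its groups did not overlap, but the gap between them was smaller than the spread within either. Rgs5 (chromosome 1, 169655501 to 169695813, plus strand), a marker of pericytes in many tissues, was nearly absent, with 18, 44 and 0 counts in IPRN 1, 2 and 3, against 8, 67 and 41 counts in DMSO 1, 2 and 3. Its log2 fold change of -0.90 ± 1.24 (SE) exceeded that of Rgs2 in size but was smaller than its own error, and the groups overlapped. Its lowest counts were those of IPRN 3 and DMSO 1, the libraries with the lowest sums of hepatocyte markers. Among the pericyte markers, Kcnj8, Higd1b, Abcc9 and Myh11 were at or near 0, while Cspg4 had 178.9, 181.4 and 149.5 CPM in IPRN 1, 2 and 3, against 122.9, 124.3 and 140.1 CPM in DMSO 1, 2 and 3. Notch3 had 4.68 to 5.33 CPM in IPRN and 3.48 to 3.72 CPM in DMSO, and Mcam 1.3 to 2.28 CPM in IPRN and 0.350 to 0.829 CPM in DMSO. Des went the other way on average, with 0.326 to 0.670 CPM in IPRN and 0.583 to 1.15 CPM in DMSO, and its groups overlapped.

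Among the RZ and R12 members, Rgs19, Rgs12 and Rgs10 were higher in every IPRN library than in any DMSO library, while the groups overlapped for Rgs17 and Rgs14. Rgs19 (chromosome 2, 181688419 to 181693977, minus strand), also called GAIP, encodes an RZ protein that acts on Gαi subunits. It had 42.9, 42.4 and 42.1 CPM in IPRN 1, 2 and 3, against 35.8, 37.2 and 38.6 CPM in DMSO 1, 2 and 3. The IPRN libraries lay within 1 CPM of one another, with a log2 fold change of 0.19 ± 0.061 (SE). Rgs17 (chromosome 10, 5825663 to 5922400, minus strand), the other RZ member, had 1.04, 1.02 and 1.06 CPM in IPRN 1, 2 and 3, against 1.25, 1.40 and 0.854 CPM in DMSO 1, 2 and 3. It averaged 1.04 ± 0.018 CPM in IPRN and 1.17 ± 0.28 CPM in DMSO (SD, n = 3 each), and its groups overlapped because DMSO 3 was the lowest library. Rgs12 (chromosome 5, 34949445 to 35039636, plus strand) encodes an R12 protein with a PDZ domain. It had 46.3, 47.6 and 42.8 CPM in IPRN 1, 2 and 3, against 41.4, 38.2 and 42.2 CPM in DMSO 1, 2 and 3. Its groups were separate but close (log2 fold change 0.17 ± 0.072). Of its 8487 exonic bases 467 are shared with Gm43791 on the opposite strand, which had at most 4 counts in any library.

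Rgs10 (chromosome 7, 128373621 to 128418758, minus strand) encodes the small R12 protein, studied mainly in immune and glial cells. It had 15.2, 10.8 and 11.2 CPM in IPRN 1, 2 and 3, against 8.52, 10.3 and 8.03 CPM in DMSO 1, 2 and 3. IPRN 1 stood above all other libraries, and the log2 fold change of 0.47 ± 0.17 (SE) was 0.30 without IPRN 1. Rgs14 (chromosome 13, 55369732 to 55384687, plus strand), the third R12 gene and one studied in hippocampal neurons, had 11, 16 and 0 counts in IPRN 1, 2 and 3, against 4, 0 and 15 counts in DMSO 1, 2 and 3. With 0 counts in a library of each group, no direction could be given for it.

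**Figure D1:**
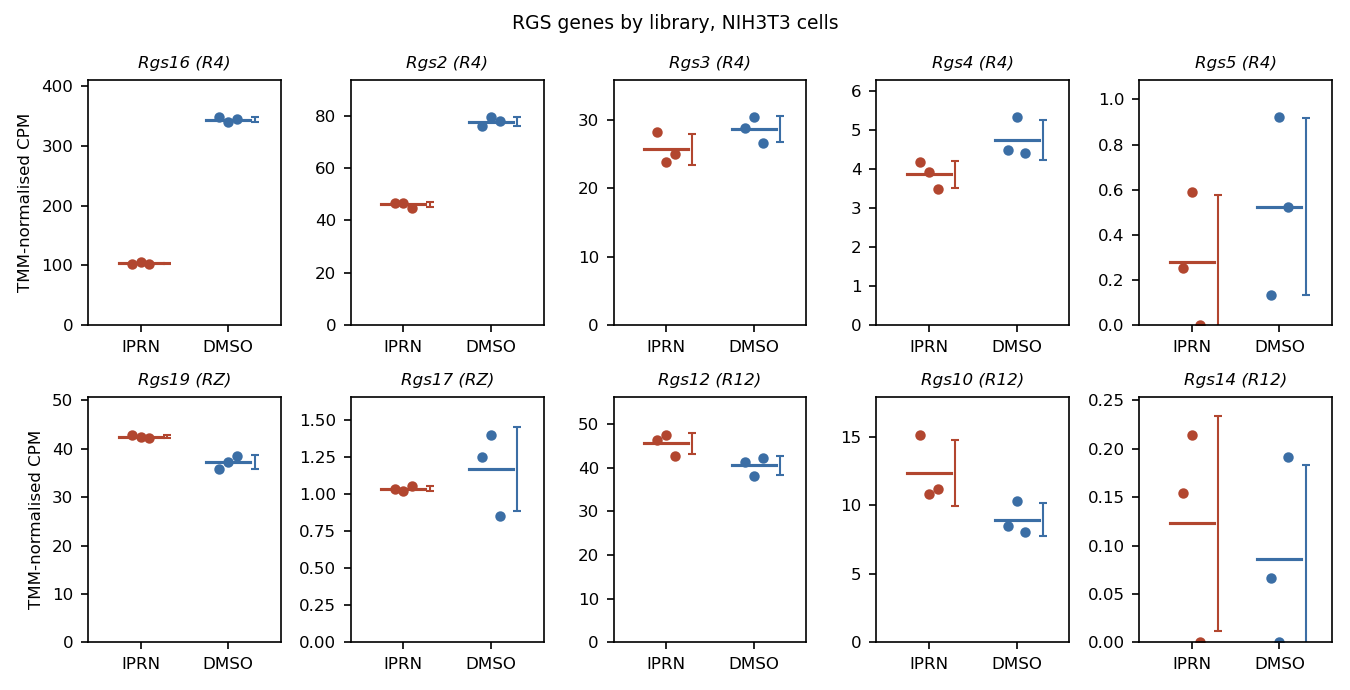
TMM-scaled CPM of the 10 RGS genes in each library (points), with the group mean (line) and SD (bar, n = 3, drawn only above 0). Axes start at 0 and differ between panels. Rgs16 and Rgs2 stand clearly lower in IPRN, while Rgs5 and Rgs14 lie under 1 CPM in every library.

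Per unit of transcript length, the family was dominated by Rgs16. The authors' FPKM values put Rgs16 first in both groups, at 39.8 ± 0.86 FPKM in IPRN and 131.9 ± 1.40 FPKM in DMSO (SD, n = 3 each). Rgs19 was second in IPRN at 17.1 ± 0.13 FPKM, ahead of Rgs2 at 11.4 ± 0.19 FPKM, and in DMSO the order of this pair was reversed, with Rgs19 at 14.9 ± 0.56 and Rgs2 at 19.2 ± 0.45 FPKM. These neighbours did not overlap in either group. Then came Rgs10 (6.49 ± 1.15 FPKM in IPRN and 4.70 ± 0.65 in DMSO) and Rgs12 (4.83 ± 0.24 in IPRN and 4.28 ± 0.21 in DMSO), whose values overlapped in DMSO only. Rgs20, a numbered RGS gene outside the 10, was sixth at 2.96 ± 0.93 FPKM in IPRN and 2.79 ± 0.39 FPKM in DMSO, overlapping the next gene, Rgs3 (2.14 ± 0.16 FPKM in IPRN and 2.38 ± 0.16 FPKM in DMSO), in both groups. Rgs4 followed at 1.12 ± 0.088 FPKM in IPRN and 1.37 ± 0.15 in DMSO. Rgs17, Rgs5 and Rgs14 were all under 0.2 FPKM in every library, and each overlapped the next in both groups.

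Summed over the 21 numbered RGS genes, the level was 86.1 ± 1.70 FPKM in IPRN and 181.9 ± 0.27 FPKM in DMSO (SD, n = 3 each). Rgs16 made up 46.2 ± 1.58% of that sum in IPRN and 72.5 ± 0.86% in DMSO. Without Rgs16 the sums were 46.3 ± 2.18 FPKM in IPRN and 50 ± 1.64 FPKM in DMSO, and their ranges overlapped, at 44.4 to 48.7 FPKM in IPRN against 48.2 to 51.5 FPKM in DMSO. Without Rgs16 and Rgs2 the remaining genes summed to 34.9 ± 2.17 FPKM in IPRN and 30.7 ± 1.19 FPKM in DMSO, with no overlap. The genes left out of that last sum are those called lower in this same comparison. Leaving them out favours a higher remainder in IPRN, so nothing is read from its direction. The RZ genes alone summed to 20.2 ± 0.81 FPKM in IPRN and 17.9 ± 0.92 FPKM in DMSO, and the R12 genes to 11.3 ± 1.16 FPKM in IPRN and 9 ± 0.42 FPKM in DMSO.

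**Figure D2:**
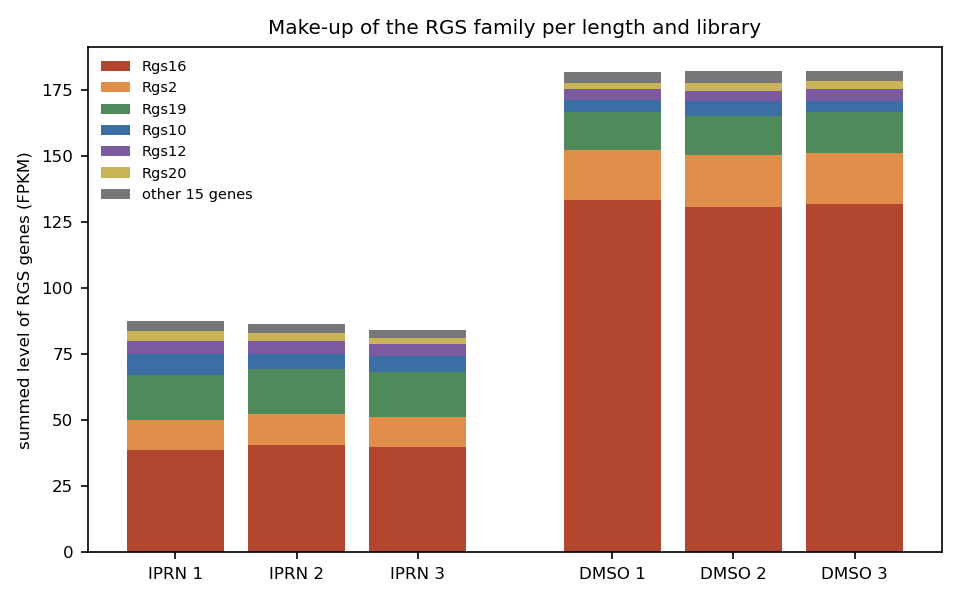
Summed FPKM of the 21 numbered RGS genes per library, stacked by gene, with the 15 genes of lowest level pooled. The IPRN bars reach between 84.2 and 87.6 FPKM and the DMSO bars between 181.6 and 182.1 FPKM, and the Rgs16 segment differs most. The Rgs2 segment is also smaller in IPRN (mean 11.4 FPKM, against 19.2 in DMSO). The remaining genes sum to more in IPRN (mean 34.9 FPKM, against 30.7 in DMSO).

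Rgs2, Rgs4, Rgs5 and Rgs16 all lie on chromosome 1, where 11 of the numbered RGS genes are found, mostly in groups of neighbours. In each of the 3 groups of neighbours, 1 gene carried most of the counts. Rgs16 lies 40025 bases from Rgs8, which had at most 20 counts in any library, against 6579 or more for Rgs16. Rgs2 is followed by Rgs13, Rgs1, Rgs21 and Rgs18, genes known mainly from blood cells or taste tissue, of which none exceeded 8 counts in a library. Rgs4 lies 45663 bases from Rgs5 on the opposite strand, and had 225 to 388 counts against 0 to 67 for Rgs5.

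Outside the 10 members, 4 further genes of an RGS list (numbered RGS genes and the anchor proteins Rgs7bp and Rgs9bp) passed the filter out of 13 listed, and edgeR called 0 of them, with 0 at an unadjusted p under 0.05 and 0 called by DESeq2. Rgs20 had 19.1, 12.8 and 10.1 CPM in IPRN 1, 2 and 3, against 11.2, 13.5 and 14.8 CPM in DMSO 1, 2 and 3, so the groups overlapped and IPRN 1 was again the highest library. Its log2 fold change was 0.089 ± 0.24 (SE), with an edgeR adjusted p of 0.889. Rgs9bp, which encodes an anchor of an RGS complex of the retina, averaged 2.41 ± 1.14 CPM in IPRN and 2.82 ± 0.70 CPM in DMSO (SD, n = 3 each) with overlapping groups, and Rgs8 and Rgs7bp had at most 20 and 31 counts in a library. Among the 9 numbered genes that did not pass the filter, Rgs9 and Rgs21 had 0 counts in all 6 libraries.

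Of 27 tested genes of the G protein-coupled receptor family, 5 fell (18.5%) and 0 rose, beside 3.01% lower and 2.46% higher of all tested genes. This list and the lists of pathway genes below were chosen with earlier results of these data known. Nothing is therefore read from their shares beside those of all tested genes, and their p-values serve as descriptions only. The median log2 fold change of the 27 was -0.23. With an unadjusted p under 0.05 there were 8 lower and 3 higher in edgeR, and DESeq2 called 6 lower and 1 higher. Ptgfr, the Gq-coupled receptor for prostaglandin F2α, fell most. It had 17.5, 19.2 and 19.6 CPM in IPRN 1, 2 and 3, against 38, 38.4 and 37.4 CPM in DMSO 1, 2 and 3, and the log2 fold change was -1.01 ± 0.075 (SE) with an edgeR adjusted p of 0.00124. Lpar1, a receptor for lysophosphatidic acid, fell to 120.9 ± 1.58 CPM in IPRN, against 149.1 ± 1.85 CPM in DMSO (edgeR adjusted p = 0.0144). S1pr3, a receptor for sphingosine 1-phosphate, fell to 158 ± 4 CPM in IPRN, against 184.8 ± 0.63 CPM in DMSO (adjusted p = 0.0310), and Ednra, the endothelin receptor type A, to 16.7 ± 0.80 CPM in IPRN, against 22.9 ± 1.61 CPM in DMSO (adjusted p = 0.0365). The fifth was the orphan receptor gene Gpr176, a gene of the list that was named after its values were seen, at 58.3 ± 1.79 CPM in IPRN and 71.9 ± 3.73 CPM in DMSO (adjusted p = 0.0380). Ptgfr, S1pr3, Ednra and Gpr176 share short exon stretches with another gene model, so their sizes are uncertain.

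Among Gα genes, 2 of 10 tested members rose (20%) and 0 fell, beside 2.46% higher and 3.01% lower of all tested genes. Their median was 0.10. With an unadjusted p under 0.05 in edgeR, 3 were higher and 1 was lower, and DESeq2 called 2 higher and 1 lower. Gna11, a Gq-class subunit, rose to 149.2 ± 0.66 CPM in IPRN, against 119.9 ± 5.55 CPM in DMSO (edgeR adjusted p = 0.0208). Gnai2, the main inhibitory subunit of many cells, rose to 322.7 ± 11.5 CPM in IPRN, against 272.8 ± 6.89 CPM in DMSO (adjusted p = 0.0365). Among 13 tested Gβ and Gγ genes 1 fell (7.69%) and 0 rose, near the 5.47% of all tested genes called in either direction. The gene was Gng12, at 221.9 ± 12.7 CPM in IPRN, against 289.2 ± 4.35 CPM in DMSO (edgeR adjusted p = 0.0154). In that list 0 were higher and 1 was lower both at an unadjusted p under 0.05 and among the calls of DESeq2. Gng12 shares 125 exonic bases with a model on the opposite strand.

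Of 15 tested proteins that carry an RGS domain but are named for another function, 2 rose (13.3%) and 0 fell (median 0.13). Of all tested genes, 2.46% were called higher and 3.01% lower. With an unadjusted p under 0.05 in edgeR, 4 of this list were higher and 1 was lower, and DESeq2 called 3 higher and 0 lower. The 2 that rose in edgeR were Grk2 and Arhgef11. Grk2, the kinase that phosphorylates active receptors and binds Gαq, had 103.1 ± 2.12 CPM in IPRN and 85.7 ± 2.60 CPM in DMSO (edgeR adjusted p = 0.0294). Arhgef11, an effector of Gα12 and Gα13, had 58.9 ± 5.70 CPM in IPRN and 45 ± 1.09 CPM in DMSO (edgeR adjusted p = 0.0413). Arhgef11 shares 991 exonic bases with Lrrc71 on the opposite strand. Among 13 tested effectors, Pde4b, a phosphodiesterase that breaks down cAMP, fell to 35 ± 2.56 CPM in IPRN, against 48.2 ± 2.62 CPM in DMSO (adjusted p = 0.0266). In that list 1 fell (7.69%) and 0 rose, near the 5.47% of all tested genes called in either direction. With an unadjusted p under 0.05 in edgeR, 1 was higher and 2 were lower, and DESeq2 called 1 each way. Of 7 other regulators, the arrestins, Gpsm and Ric8 genes, edgeR and DESeq2 each called 0, and 1 was higher at an unadjusted p under 0.05. Of the 11 pathway genes called, Ptgfr kept its call with each single library left out but not without DMSO 1 and IPRN 3 together (adjusted p = 0.0538), where none of the 11 was called. Gng12 was no longer called when DMSO 1, DMSO 2, DMSO 3 or IPRN 3 was left out, Gpr176 when any 1 library was, and the other 8 when any 1 library other than IPRN 1 was. Their adjusted p-values in edgeR were then 0.0502 to 0.161.

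**Figure D3:**
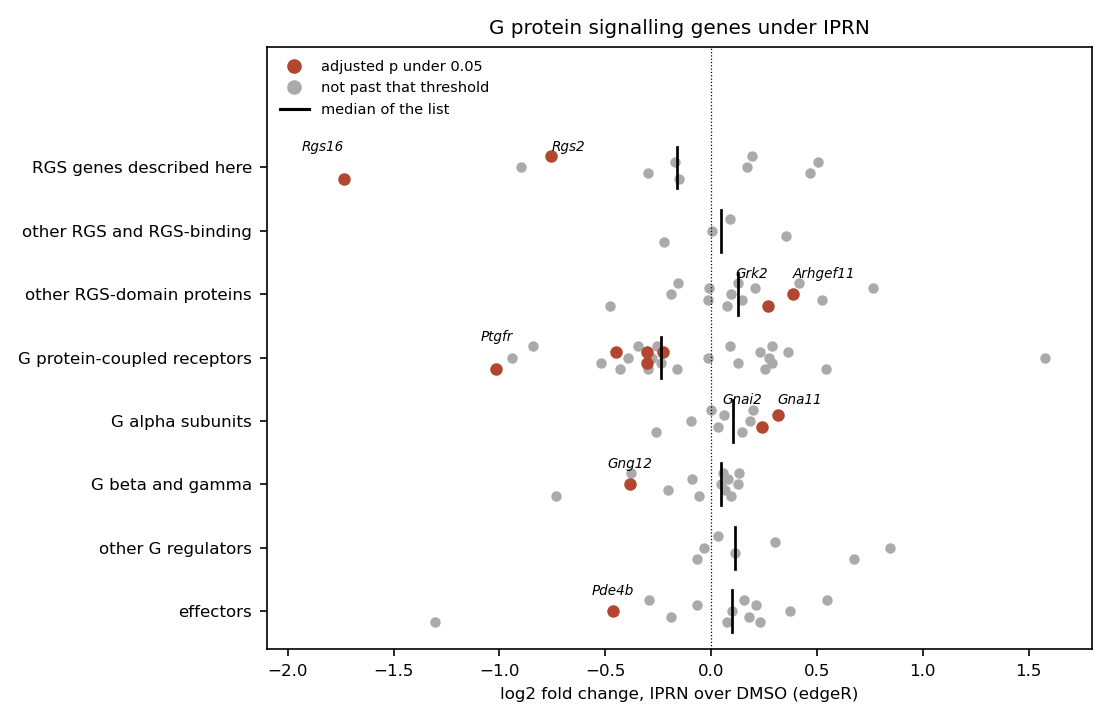
Log2 fold change of IPRN over DMSO from edgeR for each tested gene, by list; coloured points passed an adjusted p of 0.05 and black lines mark list medians. Rgs16 at -1.73 lies farthest to the left, and 5 receptors led by Ptgfr at -1.01 are coloured.

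By Pearson correlation of log2 CPM over the 6 libraries, the genes most like Rgs16 among 9918 compared were Sgk1, a serum- and glucocorticoid-induced kinase gene (r = 0.9996), Jun, an AP-1 gene (0.9996), and Lif, a cytokine gene (0.9994). The libraries form a pair of groups, so these values reflect mainly a difference between IPRN and DMSO with little spread inside each group. Sgk1 averaged 248.8 ± 2.19 CPM in IPRN and 491 ± 3.57 CPM in DMSO (SD, n = 3 each), and Jun 200.5 ± 3.07 CPM in IPRN and 399.6 ± 6.38 CPM in DMSO.

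Under other scaling, filters, fits and subsets of libraries, all members but Rgs14 kept the sign of their log2 fold change. The log2 fold change of Rgs19 ranged over 0.16 to 0.22, that of Rgs12 over 0.13 to 0.22, and that of Rgs10 over 0.30 to 0.59. That of Rgs3 ranged over -0.23 to -0.10, that of Rgs4 over -0.36 to -0.20 and that of Rgs17 over -0.35 to -0.01. For Rgs17 the log2 fold change of -0.17 was smaller in size than its SE of 0.29, so its kept sign says little. The nearly absent Rgs5 spread widest on one side of 0, from -2.03 to -0.22, and Rgs14 crossed 0.

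**Figure D4:**
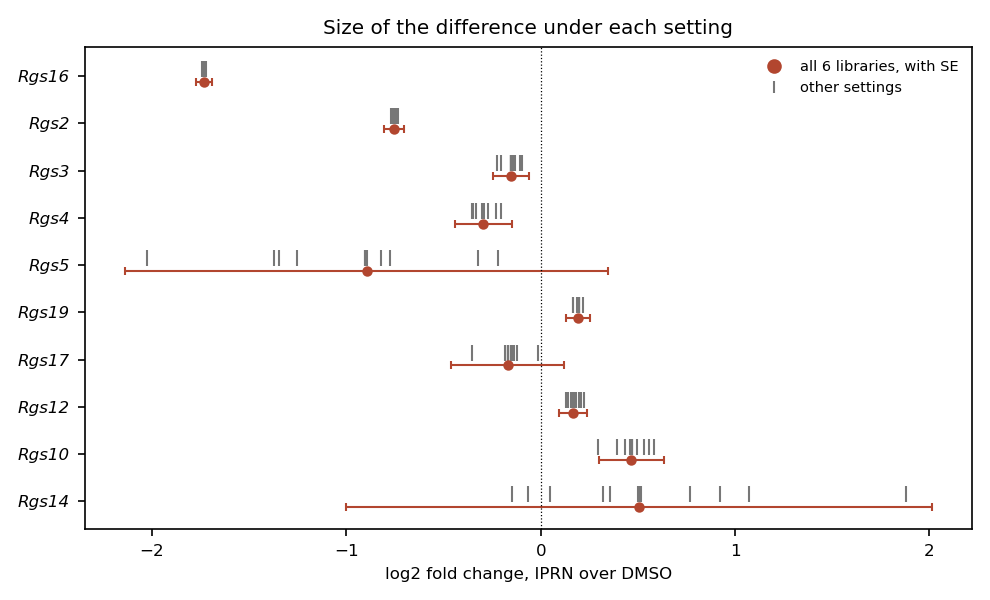
Log2 fold change of IPRN over DMSO of the 10 RGS genes with all 6 libraries (point, bar is the SE) and under the other settings tried (ticks), including each library left out. The ticks of Rgs16 span -1.74 to -1.72 and those of Rgs2 span -0.77 to -0.74, while those of Rgs14 lie on both sides of 0.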

How the data were processed

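The authors deposited 1 table per library with a raw count and an FPKM value (scaled by gene length and library size) per Ensembl gene, per the file headers. Cutadapt 1.9 was used, per the submitters' processing notes. No aligner, counting tool or build is named there or in the labels. GENCODE M21 on GRCm38 held 55141 of the 55401 IDs, and 94.2% of these had identical positions. Total counts were 60320282 to 78629444 per library, so that 3 counts equal 0.0382 to 0.0497 CPM, for counting error only.

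The test was that of edgeR 4.0.16 under R 4.3.3 (TMM, its default filter with a minimum count of 10, quasi-likelihood test on group, two-sided, Benjamini-Hochberg over all 17159 tested genes, threshold 0.05), after a check on simulated data. SE came from the log2 fold change and F. Alternatives were other scaling, filters, DESeq2 1.42.0, libraries left out, a replicate block and a term for libraries with hepatocyte transcripts. FPKM values served to compare levels between genes and to give the summed level of the family in each group, and no test was run on them. Replicates differed beyond counting noise (chi-square per degree of freedom 31.2 to 88.8, highest with IPRN 1). Separate cultures are not stated in the labels, so p-values rest on a spread among libraries that may be technical only.

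The members, gene lists and markers were chosen with earlier results of these data known. Named besides the members were at most 4 called genes per pathway list with the smallest adjusted p, plus Gpr176, the fifth called receptor, named after its values were seen, and the 3 genes most like Rgs16 (mean of at least 5 CPM, pseudocount 0.5). The same search for Rgs14, the member with the largest positive fold change, was left out because its counts included 0. Protein sequences were not used here.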

Additional observations from a re-analysis of the deposited data

How the results depend on the processing

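Rgs16 was called with a log2 fold change of -1.74 to -1.72 under all 13 alternatives, and Rgs2 (-0.77 to -0.74) under 12 of 13, the exception being the fit without DMSO 1 and IPRN 3, where 1 member was called. Leaving out 1 library kept 2 members called each time. These fits reuse the libraries whose comparison entered the choice of members. They show only how the values depend on the processing and give no independent support. Rgs14 turned from 0.50 to -0.07 without DMSO 2 and to -0.15 without IPRN 2, and reached 1.88 without DMSO 3. The count of all called genes was 1911 with DESeq2, 621 with no filter, 429 with the hepatocyte term, 53 without DMSO 1 and IPRN 3, and 133 to 1047 with 1 library left out. With 1 library left out, calls ran from 0 to 3 for Gα, 0 to 1 for Gβ and Gγ, 0 to 1 for effectors, 1 to 6 for receptors and 0 to 2 for other RGS-domain proteins. Without DMSO 1 and IPRN 3 each of these 5 lists had 0 calls in edgeR. With no filter there were 1 for Gα, 2 for receptors and 1 for other RGS-domain proteins, and with the hepatocyte term 1, 2 and 0. Effectors had 2 with DESeq2 and 2 with a mean count of at least 50. The cause was not tested. With replicate number as a block 103 genes were called, among them 2 members, 1 receptor and 0 genes of each of the other 4 lists. Same-numbered libraries did not deviate together (r = -0.081, 0.022 and -0.062), and no library correlated best with its own number. The highest value was r = 0.116, between IPRN 3 and DMSO 1, the libraries lowest in hepatocyte markers other than Hp. No pairing by number was thus seen, though with 3 libraries per group a weak one could go unseen. Rgs5 and Rgs14 had at most 67 and 16 counts in a library, with 0 in some, and their values varied widely between libraries.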
